A study of Mus musculus with 4 samples.

Results

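The cells described here were the 157 mouse embryonic stem cells (mESCs) with the lowest Zfp42 level among 1574 cells of 1 single-cell RNA-seq library. Cells were kept with at least 3000 unique molecular identifiers (UMIs, each counting 1 captured RNA molecule) and at most 20% of UMIs from mitochondrial genes. Members were chosen by their measured Zfp42 UMIs divided by total UMIs, with ties ordered by the higher total, and the lowest 10% were taken as Zfp42-low. The 787 cells in the highest 50% of the same ranking were the comparison and are called Zfp42-high, and 630 cells lay between.

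The study tested a demultiplexing workflow for split-pool single-cell RNA-seq on 3 mouse lines, the neuroblastoma line Neuro-2a (N2a), the fibroblast line NIH/3T3 and mESCs, which received their first barcode in separate wells of 1 CapSeq experiment. The mESCs were E14TG2a cells on gelatin-coated dishes in medium with 15% serum, 1000 U/ml leukemia inhibitory factor (LIF), 3 μM CHIR99021, which inhibits GSK3, and 1 μM PD0325901, which inhibits MEK. All mESCs shared this culture and no other condition was applied. With 1 library there was no replicate, so no test was made, and every interval below is a 95% interval for counting error only.

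Zfp42, also called Rex1, encodes a zinc finger protein that is a standard marker of naive pluripotency, the ground state of the pre-implantation epiblast. Its transcript is lost as mESCs pass into formative and primed states, in which genes such as Otx2, Fgf5 and Dnmt3b are active, and it is low in early differentiated cells. Serum cultures without inhibitors are known to mix cells with high and low Zfp42, while blockade of MEK and GSK3 holds most cells in the naive state. A small, transient share of mESCs also enters a 2-cell-like state, in which Zscan4 genes and other transcripts of the 2-cell embryo are switched on.

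Zfp42 (ENSMUSG00000051176, chromosome 8, 43743871 to 43760152 on the minus strand of GRCm39) was the measure that chose the cells, so its level is given only as a description. It stood at 332.3 counts per 1000000 UMIs (CPM, interval 295.4 to 372.4) in Zfp42-low cells, at 946.4 CPM in the cells between and at 1777 CPM (1743 to 1812) in Zfp42-high cells. Zfp42-low cells carried 0 to 6 Zfp42 UMIs each, with a median of 2, and Zfp42-high cells 4 to 47, with a median of 11. Of the Zfp42-low cells, 14 had no Zfp42 UMI, 59 had 1, 43 had 2 and 23 had 3. Most members therefore still held Zfp42 RNA, and the pooled level was far above the 0.763 CPM in N2a and 1.32 CPM in NIH/3T3 cells, which are not pluripotent.

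The ranking had no gap at the limit. The last member held 2 Zfp42 UMIs of 3554 (562.7 CPM) and the first cell outside held 9 of 15929 (565.0 CPM), while the lowest Zfp42-high cell held 28 of 22154 (1264 CPM). A count of 0 allows a level of up to 321 CPM in the deepest of these 14 cells and 994 CPM in the shallowest. With so few Zfp42 UMIs per cell, the order of cells near the limit is uncertain. Zfp42-low cells were also shallower, with a median of 5056 UMIs (3017 to 16968) against 6006, and the totals pooled below were 887853 and 5660818 UMIs.

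**Figure D1:**
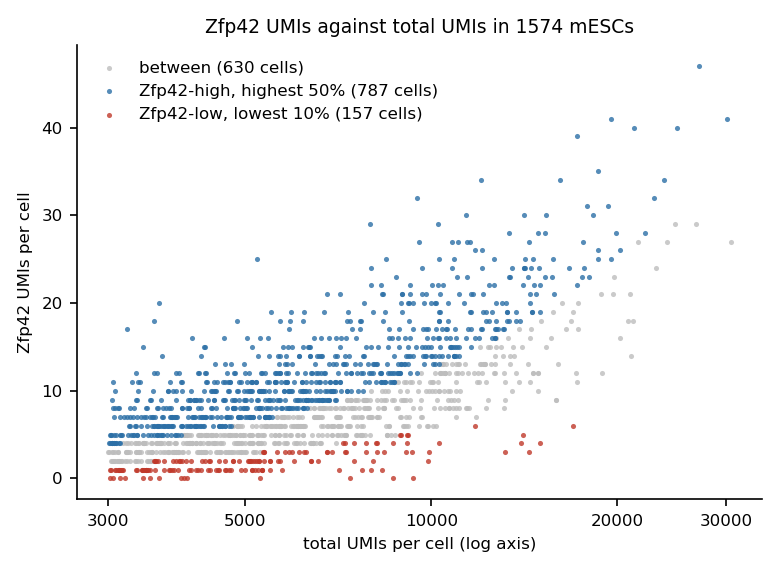
Each point is 1 mESC, with total UMIs on the x axis (log scale) and Zfp42 UMIs on the y axis, and colours mark the 157 Zfp42-low cells, the 787 Zfp42-high cells and the 630 between. The Zfp42-low cells form the lower edge of a continuous cloud, with 0 to 6 Zfp42 UMIs that range higher in deeper cells, and none has over 16968 UMIs.

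Measures of RNA quality were as follows. The median mitochondrial share was 2.13% in Zfp42-low and 1.93% in Zfp42-high cells, and ribosomal protein genes held 7.93% and 8.49% of UMIs. All 12 tested genes of the mitochondrial genome had a ratio above 1 in Zfp42-low cells, with a median log2 ratio of 0.29 and 0 genes called. The part of these differences in the results below was not tested. After each cell was thinned to 3000 UMIs, the median number of genes detected was 1902 and 1919. The members came from 31 of the 32 first-round barcode wells used for mESCs, with at most 12 in 1 well and a median of 4.5.

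Few genes separated the groups. Among 4432 genes with at least 50 CPM over all cells that passed, 68 (1.53%) were at least 1.5-fold higher in Zfp42-low cells and 50 (1.13%) at least 1.5-fold lower, after 10 CPM was added to both levels. These 2 shares are the background against which the gene groups below are read, and "called" refers to this threshold. The median log2 ratio of all 4432 genes was -0.03, and 2443 of them had a ratio below 1 and 1989 above. Among the called genes were several sets that a pooled profile mixes: genes whose UMIs lay mostly in 2-cell-like cells, genes that were higher with those cells left out, p53 target genes, and genes on chromosome 8.

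Genes of the 2-cell-like state showed the largest difference. The 20-gene list, of which 18 genes were in the matrix, with Zscan4 genes, Eif1ad8 and Tmem92 among its members, summed to 503.5 CPM (457.9 to 552.4) in Zfp42-low cells and 37.27 CPM (32.41 to 42.66) in Zfp42-high cells, a ratio of 13.5 (11.4 to 16.0). Zscan4c, which is tied to telomere maintenance in mESCs, was at 60.8 against 5.48 CPM and Zscan4d at 59.7 against 6.01 CPM. Eif1ad8, which is related to the translation initiation factor eIF1A, was at 203 against 12.0 CPM (ratio 16.9, 12.7 to 22.7). Tmem92, a membrane protein gene, was at 49.6 against 1.59 CPM (ratio 31.2, 15.0 to 72.6). None of the list's genes reached 50 CPM over all cells, and the Zscan4, Usp17l and Eif1ad genes have near-identical copies, so the split of reads within each family is uncertain.

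The difference came from a minority of cells. With a 2-cell-like (2C-like) cell taken as one with 3 or more UMIs from the list, 20 of 157 Zfp42-low cells (12.7%, exact interval 7.96 to 19.0%) qualified, against 25 of 630 cells between (3.97%) and 19 of 787 Zfp42-high cells (2.41%, 1.46 to 3.75%). At an equal depth of 3000 UMIs per cell the shares were 10.8% and 1.40%. N2a, which should lack these transcripts, gave 0 of 1850 cells, and NIH/3T3 gave 2 of 1500 (0.133%). With 0 taken to allow 3 cells, the N2a share could be up to 0.162%. With 1 or more list UMIs as the criterion the share was 17.8% in Zfp42-low and 6.48% in Zfp42-high cells, beside 6.73% in NIH/3T3 and 0.108% in N2a, so that the Zfp42-high share by that criterion did not exceed the NIH/3T3 background. The 20 Zfp42-low cells held 3 to 86 list UMIs and 0 to 3 Zfp42 UMIs each, were spread over 14 wells with at most 3 in 1 well, and the richest cell held 19.2% of the list's UMIs in the group. The other 137 Zfp42-low cells carried fewer than 3 list UMIs, and of the 14 members without a Zfp42 UMI 4 were 2C-like. Of the 64 2C-like cells among all mESCs that passed, 44 lay outside the Zfp42-low group, and Zfp42 over all 64 was at 1076 CPM (981 to 1177). Of the 20 Zfp42-low ones 3 held exactly 3 list UMIs, the least that qualifies.

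These few cells held most of the UMIs of the genes with the largest ratios. Ccser1 was at 366 CPM in Zfp42-low and 34.6 CPM in Zfp42-high cells, a ratio of 10.6 (8.83 to 12.7), and 91.7% of its UMIs in Zfp42-low cells lay in the 20 2C-like cells. With 2C-like cells removed from both groups, leaving 137 and 768 cells, its ratio was 1.32 (0.839 to 1.99). Popdc3, of the Popeye domain family, went from 7.78 (225 against 29.0 CPM) to 1.01, and Neto2, an auxiliary subunit of kainate receptors, from 5.18 (274 against 52.8 CPM) to 0.777. The splicing factor gene Cwc22 went from 3.68 to 1.04, the Slit receptor gene Robo1 from 3.42 to 1.15 and the postsynaptic scaffold gene Dlgap2 from 3.33 to 0.90. C1d, a cofactor of the nuclear exosome, went from 3.13 to 0.692, Nelfa, a subunit of the negative elongation factor, from 3.02 to 0.791, and Arhgef26 from 2.88 to 0.704. The noncoding Gm38825 went from 3.18 to 1.17. The Zfp42-low cell with most UMIs of the gene held 96 of 325 for Ccser1, 62 of 200 for Popdc3, 79 of 243 for Neto2 and 90 of 365 for Robo1. With only that cell left out, the ratios were 7.50 (6.17 to 9.13), 5.41, 3.53 and 2.60.

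**Figure D2:**
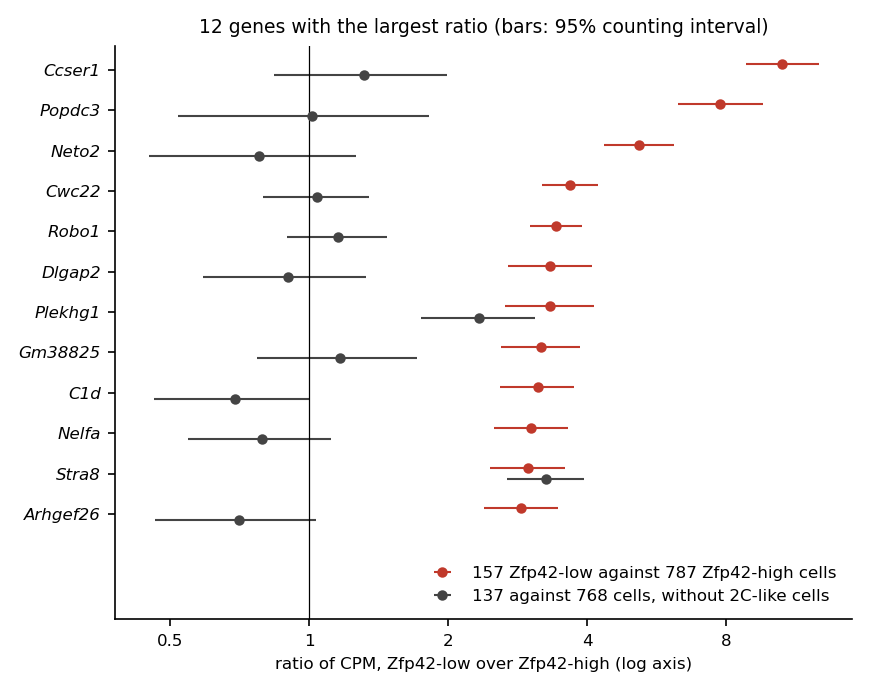
Ratio of CPM in Zfp42-low over Zfp42-high cells (log axis) for the 12 tested genes with the largest difference, with all cells in red and with 2C-like cells left out in black, and bars for the 95% counting interval. Without 2C-like cells the ratios of 10 of the 12 genes lie between 0.692 and 1.32, while Stra8 (3.26) and Plekhg1 (2.33) stay apart from 1.

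With 2C-like cells left out, 50 genes (1.13%) were called higher and 42 (0.948%) lower, of which 28 and 33 had the same call with all cells. Stra8, a retinoic acid-induced gene of meiotic entry, was at 193 CPM in Zfp42-low and 64.7 CPM in Zfp42-high cells, a ratio of 2.98 (2.47 to 3.58), and at 3.26 without 2C-like cells. At 3000 UMIs per cell, 25.5% of Zfp42-low and 16.0% of Zfp42-high cells held a Stra8 UMI, so the difference was in the number of positive cells as well as in the sum. Mbnl2, a splicing regulator, was at 228 against 103 CPM (ratio 2.21, 1.88 to 2.60), with 40.1% and 24.5% of cells positive at equal depth. Plekhg1 was at 142 against 42.8 CPM (ratio 3.32) and at 2.33 without 2C-like cells.

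Peg10, an imprinted gene derived from a retrotransposon and needed in the placenta, had a different distribution. It was at 248 CPM in Zfp42-low and 90.6 CPM in Zfp42-high cells (ratio 2.73, 2.32 to 3.21), yet 20.4% and 19.7% of cells held a Peg10 UMI at equal depth. A single member held 51 of the 220 Peg10 UMIs of the group, and without that cell the ratio was 2.12 (1.77 to 2.53). The higher sum thus lay in more UMIs per positive cell and not in more positive cells.

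Further genes were called higher with and without 2C-like cells, and of all 50 genes called higher without them 9 were on chromosome 6, Stra8, Peg10, Lncpint and Ldhb among them, a chromosome described further below. Lncpint, a long noncoding RNA induced by p53, had a ratio of 2.18, Slit2, a secreted ligand of Robo receptors, 2.08, and Mgat5, which branches N-glycans, 1.76 (283 against 160 CPM). Ldhb, the B subunit of lactate dehydrogenase, was at 117 against 65.4 CPM (ratio 1.79), and the kinase gene Tesk2 at 149 against 78.8 CPM (ratio 1.89). S100a13 (ratio 2.16) and Slit2 overlap another gene on the same strand, so their reads may include the neighbour's.

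The genes with the lowest ratios were mostly of low level. Myo1f, an unconventional myosin, was at 25.9 CPM in Zfp42-low and 65.4 CPM in Zfp42-high cells, a ratio of 0.396 (0.248 to 0.604), and Npr3, the clearance receptor for natriuretic peptides, at 24.8 against 59.4 CPM (0.417, 0.258 to 0.643). Bnc2, a zinc finger gene, had a ratio of 0.462 and Bicral, a subunit of a BAF chromatin remodelling complex, 0.487 (58.6 against 120 CPM). Itpk1, an inositol phosphate kinase, was at 98.0 against 189 CPM (0.517, 0.411 to 0.644). The other genes of this set were E2f4 (0.490) and Klhl2 (0.536), both on chromosome 8, Adam23 (0.491), Utf1 (0.502), Zic5 (0.503), H2-M5 (0.512) and Ank2 (0.527). The largest of these differences were far smaller than those of the 2-cell-like genes.

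The naive pluripotency list was close to equal in the groups. Its 30 genes, which do not include Zfp42, summed to 9405 CPM (9204 to 9609) in Zfp42-low and 10006 CPM (9923 to 10088) in Zfp42-high cells, a ratio of 0.940 (0.919 to 0.962). Of its 25 tested genes 2 were called higher and 1 lower. A ratio below 1 was found in 18 of them, beside 2443 of 4432 over all genes. The median log2 ratio was -0.16 beside -0.03 over all genes. Zfp57, which keeps imprints methylated, was the gene called lower, at 140 against 219 CPM (ratio 0.639, 0.527 to 0.769), and without 2C-like cells its ratio of 0.668 no longer passed the call threshold. Fbxo15, a target of Oct4 and Sox2, was called higher at 607 against 387 CPM, but its ratio of 1.57 became 0.938 without 2C-like cells. The other gene called higher, Trp53inp1, is also a p53 target and is described with them.

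The central factors of the naive network differed by less than the call threshold. Nanog was at 449 CPM in Zfp42-low and 603 CPM in Zfp42-high cells (ratio 0.745, 0.670 to 0.826), Klf4 at 193 against 246 CPM (0.782, 0.663 to 0.917) and Klf5 at 257 against 345 CPM (0.744, 0.646 to 0.854). Their intervals lay below 1. Esrrb (0.898, 0.792 to 1.02), Tfcp2l1 (0.895, 0.818 to 0.978), Tbx3 (0.866, 0.768 to 0.974) and Klf2 (0.865, 0.751 to 0.991), which lies on chromosome 8, were closer to equality. Dppa5a, which holds the most UMIs of the list, was at 1817 against 1797 CPM (ratio 1.01), and Prdm14, a repressor of DNA methyltransferase genes, had a ratio of 0.940 (0.608 to 1.40). Dppa3, a maternal factor that protects DNA from demethylation, was higher, though below the level minimum, at 28.2 against 6.71 CPM (ratio 4.20, 2.43 to 7.13). It rested on 25 and 38 UMIs, 9 of them in 1 Zfp42-low cell, and without that cell its ratio was 2.7 (1.41 to 4.96).

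The list of general pluripotency genes, which stay on in both naive and primed cells, was lower by more than the naive list, at 2704 against 3219 CPM (ratio 0.840, 0.805 to 0.877). Of 10 tested genes 0 were called higher and 1 lower, and 9 had a ratio below 1. Utf1, a chromatin-bound factor of undifferentiated cells, was the gene called lower, at 33.8 against 67.3 CPM. L1td1, an RNA-binding protein derived from a LINE element, was at 438 against 661 CPM (0.662, 0.595 to 0.736), the Nodal co-receptor Tdgf1 at 374 against 505 CPM (0.741, 0.660 to 0.831) and the zinc finger factor Sall4 at 215 against 275 CPM (0.784, 0.671 to 0.911). Rif1, with the most UMIs of the list, was at 1082 against 1091 CPM. Pou5f1 was at 46.2 against 59.5 CPM (0.776, 0.547 to 1.07), and reads that also match its pseudogenes may be missing. Sox2 was listed at 0 in every cell. It lies within Sox2ot on the same strand, and Sox2ot was at 41.7 against 52.3 CPM. Whether reads in introns were counted is not given in the sources used here, so the 0 does not show that the cells lacked Sox2 RNA.

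Genes of the formative and primed states were not higher as a group in the Zfp42-low cells. The list summed to 2444 CPM (2342 to 2549) against 2495 CPM (2454 to 2537), a ratio of 0.980 (0.936 to 1.03). Of 10 tested genes 0 were called higher and 1, the zinc finger gene Zic5 (30.4 against 60.4 CPM), lower. Igf2bp1, which holds the most UMIs of the list, was at 1037 against 1047 CPM and Igfbp2, a binding protein of insulin-like growth factors, at 274 against 232 CPM (ratio 1.18, 1.03 to 1.36). Without the member with most Igfbp2 UMIs the ratio was 1.11 (0.963 to 1.28), an interval that spans 1. The defining genes were near 0: Otx2 had 3 UMIs and Pou3f1 had 1 in all Zfp42-low cells together, and Fgf5 had 0. Dnmt3b, the de novo methyltransferase of the primed epiblast, was at 49.6 against 52.8 CPM (0.938, 0.668 to 1.29).

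Lineage genes gave no shared direction. The union of 5 lists summed to 2541 against 2303 CPM, a ratio of 1.10 (1.05 to 1.15), or 1.04 (0.988 to 1.09) with Peg10 left out, and of 13 tested genes 1 was called higher and 1 lower. The trophoblast list was at 698 against 471 CPM (ratio 1.48, 1.36 to 1.62), and the gene called higher in it was Peg10. Without Peg10 that list was at 450.5 against 380.7 CPM (ratio 1.18, 1.06 to 1.32). The trophoblast determinant Cdx2, Elf5 and Tpbpa were at 0 in Zfp42-low cells, and Krt18 had 14 UMIs, 7 of them in 1 cell, against 14 in Zfp42-high cells, with a ratio of 3.21 (1.10 to 8.49) when that cell was left out. Fgfr2, with the most UMIs of that list, was at 237 against 229 CPM (1.03, 0.887 to 1.19). The primitive endoderm list had a ratio of 1.07 (0.990 to 1.16), with Sox17 at 1 UMI, Gata6 at 2 UMIs and Pdgfra at 0 in Zfp42-low cells. Without 2C-like cells its ratio was 1.11 (1.02 to 1.20), with 1 of 4 tested genes called higher. The union then had 2 genes called higher and 1 lower. Over all cells the germ cell list had a ratio of 1.07 (0.986 to 1.16), and the list for mesoderm and definitive endoderm 0.936 (0.710 to 1.22). The ectoderm list was lower, at 0.667 (0.564 to 0.786). Its only tested gene, Stmn2, a regulator of microtubules, was called lower at 106 against 175 CPM (0.605, 0.485 to 0.749). Stmn2 held 94 of the 161 list UMIs in Zfp42-low cells, and the list's ratio without it was not computed.

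**Figure D3:**
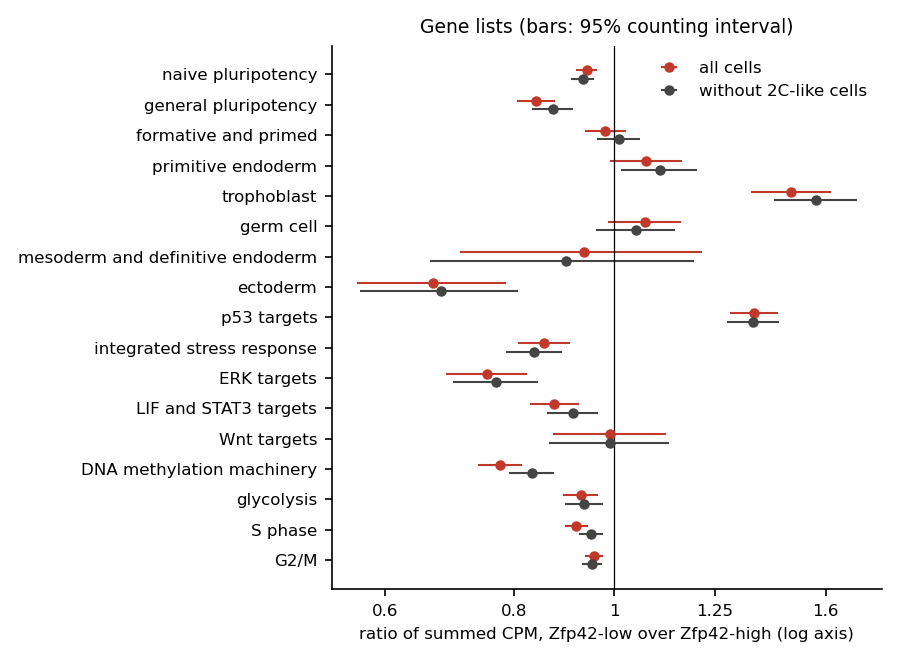
Ratio of the summed CPM of the pluripotency, lineage, signalling and cell state lists in Zfp42-low over Zfp42-high cells (log axis), with all cells in red, without 2C-like cells in black and bars for the 95% counting interval. The trophoblast (1.48, with Peg10 included) and p53 target (1.36) lists lie to the right of 1 and the ectoderm (0.667), ERK target (0.753) and DNA methylation (0.776) lists to the left, while the 2-cell-like list (13.5) and the marker lists of the N2a (1.16) and NIH/3T3 (2.37) lines are not drawn.

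Target genes of p53, the transcription factor that halts the cell cycle or starts apoptosis after DNA damage and other stress, were higher in Zfp42-low cells. The 20-gene list summed to 1822 CPM (1735 to 1913) against 1336 CPM (1306 to 1366), a ratio of 1.36 (1.29 to 1.44). Of 11 tested genes 4 were called higher and 0 lower, 8 had a ratio above 1 and 3 below, and the median log2 ratio was 0.42 beside -0.03 over all genes. Mdm2, the ubiquitin ligase that degrades p53, was at 252 against 143 CPM (ratio 1.76, with 1.70 when the member with most Mdm2 UMIs was left out). Trp53inp1, a p53 cofactor, was at 162 against 94.7 CPM (1.71), Cdkn1a, the cyclin-dependent kinase inhibitor p21, at 144 against 87.4 CPM (1.65) and Ccng1, cyclin G1, at 258 against 165 CPM (1.57). The apoptosis effector Bax, with the most UMIs of the list, was at 228 against 266 CPM (0.855, 0.735 to 0.991), so the direction was not shared by every gene.

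Of the 9 list genes below the level minimum, 7 had a ratio above 1, on fewer UMIs. Plk2, a kinase, was at 50.7 against 17.5 CPM (ratio 2.90, 1.99 to 4.16), the antiproliferative gene Btg2 at 46.2 against 19.1 CPM (2.42, 1.65 to 3.50) and Phlda3, an inhibitor of Akt, at 69.8 against 43.3 CPM (1.61, 1.20 to 2.14). Of the genes for BH3-only proteins, which trigger apoptosis, Pmaip1 (Noxa) was at 27.0 against 6.01 CPM (4.50, 2.55 to 7.82) and Bbc3 (Puma) at 19.1 against 9.72 CPM (1.97, 1.07 to 3.45). Perp had a ratio of 2.36 (1.27 to 4.19) and Aen 1.08 (0.618 to 1.80). Gdf15, a secreted stress factor that lies on chromosome 8, was in the other direction at 3.38 against 7.60 CPM (0.445, 0.0883 to 1.39), and Fas, a death receptor, had 0 UMIs against 1. The list's ratio without 2C-like cells was 1.36 as well, at 1813 against 1333 CPM. The 5 members with most p53-list UMIs held 13.7% of them, and without those cells the ratio was 1.24. At 3000 UMIs per cell the median was 5 list UMIs in Zfp42-low and 4 in Zfp42-high cells.

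Of the 20 p53 targets, 16 had 1 or more promoters in the RefSeq table (GRCm38.p6). The 250 bases before each start were searched, and 2 of these 23 promoters held a p53 consensus site with at most 1 mismatch on either strand. Both sites are shown because Cdkn1a and Ccng1 are among the genes on which the list's difference rests. Each stretch is printed 5′ to 3′ on the strand of the gene, with the site in capitals.
Cdkn1a: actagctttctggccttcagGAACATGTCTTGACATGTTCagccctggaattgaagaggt
Ccng1: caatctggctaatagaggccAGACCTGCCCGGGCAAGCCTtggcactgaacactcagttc
The Cdkn1a stretch is chr17:29090908-29090967 on the plus strand, and that of Ccng1 is chr11:40755442-40755501 on the minus strand. The other promoter listed for Cdkn1a held no such site. Over the whole table a site of this kind was found in 25 of 32851 promoters (0.0761%). The match describes the letters in these windows, and binding was not measured.

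Genes downstream of ERK signalling, which PD0325901 in the medium blocks, summed to 622 CPM in Zfp42-low and 826 CPM in Zfp42-high cells, a ratio of 0.753 (0.688 to 0.823). Of 3 tested genes 1 was called lower, the ETS factor Etv5 at 213 against 347 CPM (0.613, 0.525 to 0.712). Etv4 was at 21.4 against 31.6 CPM (0.677, 0.398 to 1.09) and the phosphatase gene Dusp6 at 10.1 against 10.2 CPM. The list of LIF and STAT3 targets had a ratio of 0.875 (0.828 to 0.924), with 0 of 9 tested genes called. Socs3, the feedback inhibitor of that pathway, was at 15.8 against 36.4 CPM (0.433, 0.233 to 0.744), below the level minimum. The Wnt target list was near equal at 0.991 (0.873 to 1.12).

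Genes of DNA methylation and demethylation were lower, at 2106 against 2715 CPM (ratio 0.776, 0.739 to 0.814), though 0 of the 6 tested genes passed the call threshold. Tet1, which oxidises 5-methylcytosine, was at 919 against 1280 CPM (0.718, 0.667 to 0.772), Tet2 at 524 against 635 CPM (0.825, 0.747 to 0.909) and Uhrf1, which brings the maintenance enzyme Dnmt1 to replicated DNA, at 283 against 364 CPM (0.777, 0.679 to 0.886). Without 2C-like cells the list's ratio was 0.832 (0.791 to 0.875). The integrated stress response list was at 0.856 (0.807 to 0.906), with 10 of 11 tested genes below 1 and 0 called, and the glycolysis list at 0.928 (0.893 to 0.965). The S phase list was at 7565 against 8236 CPM (0.919, 0.895 to 0.942) and the G2/M list at 11779 against 12332 CPM (0.955, 0.936 to 0.975). No gene of these 4 lists was called in either direction.

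Zfp42 lies on chromosome 8, and RNA from the rest of that chromosome was lower too. With Zfp42 left out, chromosome 8 gave 4.74% of UMIs in Zfp42-low and 5.27% in Zfp42-high cells, a ratio of 0.900 (0.891 to 0.910), and 0.899 without 2C-like cells. Among the nuclear chromosomes the next furthest from 1 was chromosome 12 at 1.07, which was 1.04 without 2C-like cells. All 13 windows of 10 Mb that were compared along chromosome 8 had a ratio below 1, from 0.848 to 0.958, so the difference was not local to Zfp42. Of 263 tested chromosome 8 genes 11 were called lower (4.18%), against 39 of 4169 genes elsewhere (0.936%), and 81.4% had a ratio below 1 against 53.5%. Mouse ES cell lines are known to gain a copy of chromosome 8 in culture. DNA copy number was not measured here, and its part in these values was not tested.

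Single cells fell into a pair of ranges of chromosome 8 share. In the 471 cells with at least 8000 UMIs, the peaks of these ranges were the bins at 4.0 to 4.25% (66 cells) and 5.5 to 5.75% (74 cells), with 20 cells at 4.5 to 4.75% between them. The SD over these cells was 0.803 percentage points, 3.87 times that of counting error, against 3.35 times for chromosome 6 and 1.24 to 2.00 times for the other chromosomes. A limit of 4.75%, the upper edge of that sparse bin, chosen after these values were seen, put 89 of 157 Zfp42-low cells (56.7%, 48.6 to 64.6%), 297 of 630 cells between (47.1%) and 212 of 787 Zfp42-high cells (26.9%, 23.9 to 30.2%) in the lower range. Within 0.25 percentage points of the limit lay 131 of the 1574 cells, 19 of them Zfp42-low. Zfp42 itself was at 1104 CPM in all cells below the limit and 1448 CPM in those above (ratio 0.763, 0.737 to 0.790), beside a ratio of 0.720 between the median chromosome 8 shares of those cells. The neighbours Triml1 (91.2 against 128 CPM, 0.710, 0.558 to 0.895) and Triml2 (226 against 331 CPM, 0.684, 0.589 to 0.792), of the tripartite motif family, were lower in Zfp42-low cells. Within the cells below and above the limit Triml1 was at 0.699 (0.484 to 0.989) and 0.824 (0.582 to 1.14). Triml2 was at 0.844 (0.672 to 1.05) and 0.729 (0.587 to 0.896), so the interval of each gene spanned 1 in 1 range.

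**Figure D4:**
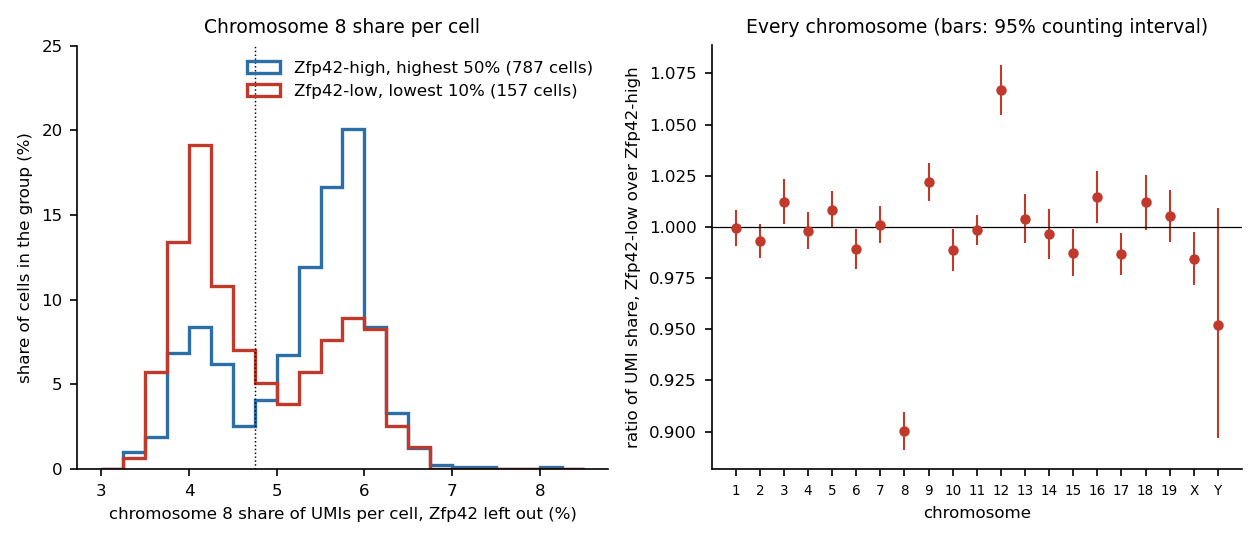
Left, share of the cells of each group (y axis, %) by the share of their UMIs from chromosome 8 without Zfp42 (x axis, %), with a dotted line at 4.75%. Right, ratio of each chromosome's UMI share in Zfp42-low over Zfp42-high cells with 95% counting intervals: chromosome 8 lies at 0.900, and 56.7% of Zfp42-low against 26.9% of Zfp42-high cells fall left of the dotted line.

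Chromosome 6 varied between cells nearly as much, and held an excess of genes called higher. Of its 235 tested genes 10 were called higher (4.26%, against 1.53% of all tested genes), although 65.1% of them had a ratio below 1 and the chromosome's share of UMIs was near equal between the groups (ratio 0.989, 0.979 to 0.999). With the 12 genes called higher on it with or without 2C-like cells left out, the cells with at least 8000 UMIs peaked at 4.5 to 4.75% (152 cells) and again, in fewer cells, at 6.5 to 6.75% (18 cells), with 6 cells at 5.75 to 6%. A limit of 5.75%, chosen after seeing the data, put 15 of 157 Zfp42-low cells (9.55%, 5.45 to 15.3%) and 138 of 787 Zfp42-high cells (17.5%, 14.9 to 20.4%) in the higher range. The 15 cells held 96 of the 220 Peg10 UMIs of the Zfp42-low group, and in the cells below the limit Peg10 had a ratio of 2.00 (1.62 to 2.46). In those cells Stra8 was at 3.04 (2.50 to 3.68), Lncpint at 2.17 (1.73 to 2.7) and Ldhb at 1.81 (1.44 to 2.28). The member with 51 of the 220 Peg10 UMIs was kept in these comparisons. In the higher range Peg10 was at 7.65 (5.87 to 9.94). Stra8 there was at 1.59 (0.611 to 3.51), Lncpint at 1.85 (0.761 to 3.92) and Ldhb at 0.767 (0.153 to 2.38). These last intervals span 1 and rest on 7, 8 and 3 UMIs in Zfp42-low cells. DNA copy number was not measured for chromosome 6 either, and its part in these values was not tested.

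The measures other than chromosome share were then compared within each range of chromosome 8 share. Below the limit 89 Zfp42-low were set against 212 Zfp42-high cells, and above it 68 against 575, and in these comparisons the chromosome 8 share was near equal (ratios 0.999 and 0.993). The p53 list was at 1.31 (1.21 to 1.42) below and 1.39 (1.28 to 1.51) above, and Mdm2 at 1.53 and 1.76. The 2-cell-like list was at 7.64 and 21.8, with 11 of the 20 2C-like members below the limit and 9 above. Nanog was at 0.791 and 0.635. Dppa5a, at 1.01 when pooled, was at 0.942 (0.878 to 1.01) below and 0.916 (0.838 to 0.999) above. Pou5f1 was at 1.24 (0.788 to 1.92) below, an interval that spans 1, and at 0.434 (0.206 to 0.810) above. Dppa3 was at 7.47 (3.18 to 19.5) and 1.54 (0.394 to 4.36), and its interval above the limit spans 1. The naive list was at 0.925 (0.896 to 0.954) and 0.885 (0.853 to 0.918), and the general pluripotency list at 0.854 and 0.787. The formative and primed list was at 0.987 (0.928 to 1.05) and 0.887 (0.823 to 0.954). Stra8 was at 4.09 and 2.36, and Peg10 at 2.46 and 3.58.

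Several single genes differed between these ranges. Klf2 was at 1.03 (0.838 to 1.25) below and 0.836 (0.674 to 1.03) above the limit, and Igfbp2 at 1.12 (0.929 to 1.34) and 0.979 (0.763 to 1.24), so neither kept an interval apart from 1. Phlda3 was at 1.04 (0.662 to 1.6) below and 2.26 (1.50 to 3.32) above, and only its interval above the limit lay apart from 1. Plekhg1 was at 1.65 (1.14 to 2.36) and 5.62 (4.20 to 7.45), and Npr3 at 0.794 (0.381 to 1.53) and 0.394 (0.187 to 0.734). Ccser1 (6.61 and 17.5) and Robo1 (1.39 and 6.40), whose UMIs in Zfp42-low cells lay mostly in 2C-like ones, also had larger ratios above the limit. Because 1 member held 96 of the 325 Ccser1 UMIs and 1 held 90 of the 365 Robo1 UMIs, these contrasts can rest on single cells. Aen (0.801 and 1.40), Dusp6 (0.300 and 2.07), Gdf15 (1.14 and 0.304), Fgfr2 (1.04 and 0.844) and Dnmt3b (1.00 and 0.666) lay on different sides of 1, or at 1 in 1 range, with intervals that spanned 1 in both. Differences between the ranges were not tested.

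When cells were ranked by Zfp42 over other chromosome 8 UMIs instead of over all UMIs, 133 of the 157 members (84.7%) were again among the lowest 10%, and 21 of the new group were 2C-like.

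Along the whole ranking, cut into 10 bins of 157 or 158 cells, the measures changed in different ways. The number of 2C-like cells was 20 in the lowest bin and between 2 and 8 in each of the other bins, with 8 in the highest. The p53 list was at 1822 CPM in the lowest bin, 1553 CPM in the next and 1264 CPM in the highest, with a lower value in each bin than in the one before. The share of cells below 4.75% chromosome 8 was 56.7% in the lowest bin and 20.3% in the highest. The naive list lay between 9405 and 10456 CPM, with its extremes in the lowest and the highest bin. Nanog was at 449 CPM in the lowest bin and 701 CPM in the highest, Stra8 at 193 and 64.1 CPM, and Peg10 at 248 and 67.5 CPM.

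**Figure D5:**
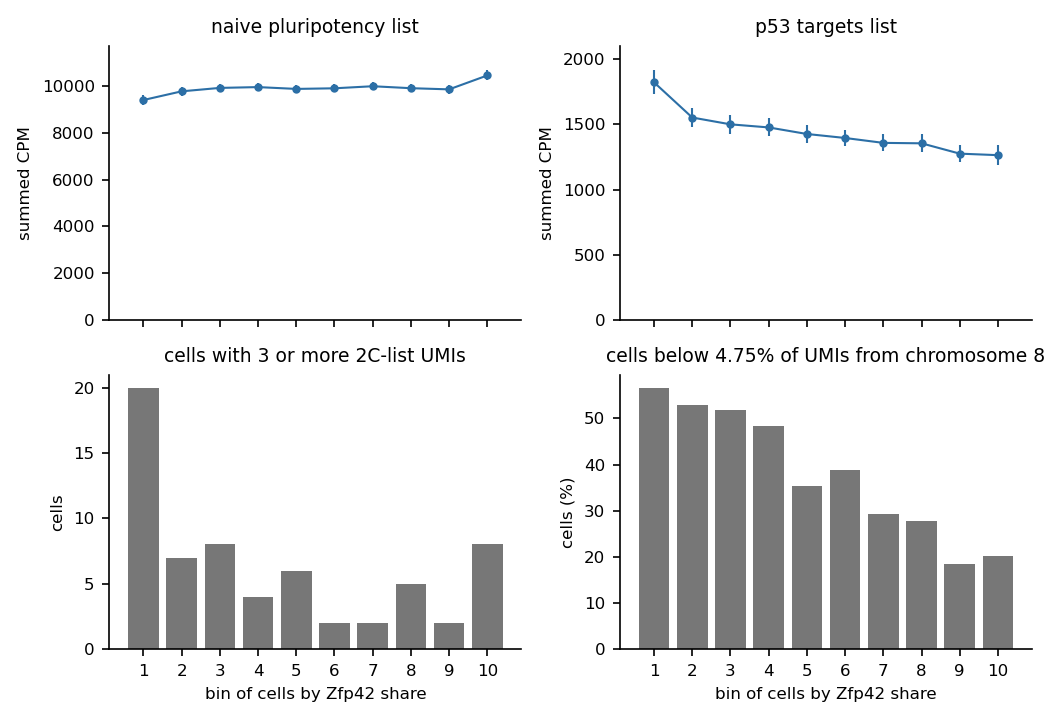
Cells in 10 bins by Zfp42 share (1 lowest, 10 highest), with the summed CPM of the naive list and of the p53 target list and its 95% counting interval in the upper panels, and 2C-like cells per bin and the share of cells below 4.75% chromosome 8 in the lower panels. The 2C-like cells stand out in bin 1 (20 cells). The p53 list (1822 to 1264 CPM) and the share of cells below 4.75% chromosome 8 (56.7% to 20.3%) change along the ranking.

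Across these 10 bins, which share the ranking that made them, the genes most like Zfp42 by Spearman's rho were Nip7, of ribosome biogenesis, and Serbp1, an mRNA-binding protein (both 0.988), the p53-induced regulator of glycolysis Tigar, the imprinted gene Mest, and Pcm1 of the centriolar satellites. Nip7 and Pcm1 are on chromosome 8. Nip7 was at 90.1 CPM in Zfp42-low and 144 CPM in Zfp42-high cells (ratio 0.625, 0.490 to 0.787), Mest at 46.2 against 82.1 CPM (0.562, 0.398 to 0.775) and Tigar at 69.8 against 101 CPM (0.692, 0.524 to 0.901). The genes most unlike it were Tbc1d8, a Rab GTPase-activating protein (101 against 63.9 CPM, ratio 1.59), the nonmuscle myosin gene Myh9 (219 against 178 CPM) and the primase gene Prim2 (135 against 103 CPM), all with a rho of -0.976, followed by Ppp1cb and then Tspan9 and Trp53inp1 together.

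Transcripts typical of the other lines were rare in Zfp42-low cells, though their share was higher there than in Zfp42-high cells. A set of 79 genes restricted to N2a reached 0.529% of the N2a level in Zfp42-low and 0.423% in Zfp42-high cells. A set of 65 genes restricted to NIH/3T3 reached 0.694% and 0.497% of the NIH/3T3 level. Low values of these sets in mESCs follow in part from their restriction to another line. The intervals of the groups overlapped for the N2a set (137 to 191 against 121 to 140 CPM). For the NIH/3T3 set they did not (114 to 164 against 90.4 to 107 CPM). The 12-gene NIH/3T3 marker list had 16 UMIs in Zfp42-low and 43 UMIs in Zfp42-high cells, a ratio of 2.37 (1.25 to 4.30), which was 1.84 (0.818 to 3.75) without 2C-like cells, and Il1rl1 had 1 UMI in the Zfp42-low cells. The part of free RNA and of doublets in these traces was not tested.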

How the data were processed

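The authors aligned reads with STARsolo to GRCm39 after demultiplexing by first barcode, and deposited 1 matrix of UMI counts per cell line and 1 of the mixture. Whether intronic reads were counted is not given in the sources used here, which bears on long and overlapping genes. The mESC matrix was used, with the N2a and NIH/3T3 matrices as background. All 1574 mESC barcodes were found in the mixture matrix, with 11385065 UMIs there and 11201113 UMIs in the mESC matrix. No barcode of a passing cell was shared between the mESC matrix and those of the other lines. Counts were summed per group of cells, divided by the group's total and given as CPM, which is not scaled to gene length, so levels were not compared between genes. Ratios carry an exact conditional binomial interval, levels an exact Poisson interval and shares of cells an exact Clopper-Pearson interval, at 95%. Ratios were called past 1.5-fold after adding 10 CPM, for genes with at least 50 CPM. Group totals of 887853 and 5660818 UMIs limit the precision. No doublet caller was run, and leaving out the 5% of cells with most UMIs was an alternative. The members and gene lists were chosen with earlier results of these data known. Named genes were the 12 highest and 12 lowest, the 3 genes with most UMIs per list, key pluripotency genes and the 5 most like and unlike Zfp42 over 10 bins; other named genes were chosen after their values were seen. The code was tested on simulated data. Tools were matplotlib 3.10.9, pandas 2.3.3, scipy 1.17.1 and numpy 2.4.6 under Python 3.11.15. Some items are not reported here.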

Additional observations from a re-analysis of the deposited data

How the results depend on the processing

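No paired analysis was possible because there was 1 mESC library and no test. Alternatives were compared on 8 results; those on either side of the chromosome 8 limit, the cells below the chromosome 6 limit, the ranking over chromosome 8, the 5 p53-rich members, the removal of Peg10, the removal of cells with any 2-cell-like UMI, and all alternatives for the 2-cell-like, p53 and chromosome 8 results were chosen after seeing the data, and the cause of each change was not tested. Genes called higher (68) and lower (50) were 153 and 201 with the lowest 5% of cells, 24 and 6 with the lowest 20%, 31 and 5 with a pseudocount of 50 CPM, 170 and 120 from 20 CPM, 26 and 19 from 100 CPM, 527 and 214 with no level minimum, and 155 and 193 in cells above 4.75% chromosome 8. Lower calls alone were 33 against all other cells, 104 in thinned cells, 79 with a pseudocount of 1 CPM, 31 under the ranking over chromosome 8 and 98 in cells below 4.75%. Values below are log2 ratios. The naive list (main -0.09) was -0.14 with the lowest 5%, -0.14 under the ranking over chromosome 8 and -0.18 above 4.75%, and the formative and primed list (-0.03) was 0.042 with the lowest 20% and -0.17 above 4.75%. The lineage lists (0.14) were 0.23 with the lowest 5%, 0.050 in thinned cells and 0.052 without Peg10. The 2-cell-like list (3.76) was 4.22 with the lowest 5%, 2.99 with the lowest 20%, 3.21 against all other cells and 3.44 with depth weights. Without 2C-like cells it was 1.07, a fall that is built in because those cells are defined by this list. The list was 2.66 with a pseudocount of 50 CPM, 4.08 from 20 CPM, 2.93 below and 4.45 above 4.75%, and 3.40 to 3.98 with 1 well left out. It gave no value from 100 CPM. The p53 list (0.45) was 0.33 with the lowest 20%, 0.36 in thinned cells, 0.36 from 100 CPM and 0.31 without the 5 richest members. The chromosome 8 share (-0.15) was -0.18 from 5000 UMIs per cell, -0.12 with the lowest 5%, -0.11 against all other cells, -0.13 as a mean of cells, -0.14 in thinned cells, -0.12 with median-of-ratios factors, -0.17 from 20 CPM, -0.19 from 100 CPM, -0.17 to -0.14 with 1 well left out, and reversed to 0.0044 under the ranking over other chromosome 8 UMIs, which is built to remove it. With 1 well left out, 56 to 79 genes were called higher and 46 to 59 lower. In the alternatives run, no other value changed sign except in the formative and primed list, whose interval with the settings of the report spans 0.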
